A study of Mus musculus with 3 samples.

Results

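Cadherins and protocadherins were taken as every gene of the expression matrix whose symbol begins with Cdh and a digit or with Pcdh, leaving out the endothelial Cdh5, which gave 90 of 18545 genes. These are calcium-dependent adhesion proteins that hold neighboring cells together by binding the same or related cadherins on the facing membrane. Classical cadherins are grouped as type I and type II and connect to the actin cytoskeleton through catenins. Protocadherins include the alpha, beta and gamma gene clusters, from which single neurons use different combinations, and non-clustered delta protocadherins. In the retina, type II cadherins such as Cdh8 and Cdh9 are known for guiding bipolar cell axons to their layer of the inner plexiform layer, and Pcdh15 and Cdh23 for the Usher protein complex of hair cells and photoreceptors.

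Single-cell RNA-seq libraries were made from dissociated mouse retinas at 8 weeks of age, with 1 retina per mouse and several mice pooled per library; the sample descriptions and the study's methods differ on how many mice each rd10 pool held. The 3 groups were wild type given control chow (WT), Rd10 given control chow (rd10-vehicle) and Rd10 given tamsulosin, metoprolol and bromocriptine in chow (rd10-TMB), and all mice were labelled C57BL/6J and were dark-reared for life, which slows degeneration in Rd10. The label Rd10 stands for a Pde6b mutation that leads to the loss of rods and then cones. The WT pool held both sexes and both rd10 pools were female, so genotype and sex of the pool cannot be told apart. Each group was 1 library, so no test between groups was possible, and every interval below is a 95% interval that covers counting error only.

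The libraries held 4478 WT cells, 5952 rd10-vehicle cells and 4812 rd10-TMB cells, with medians of 3510, 4812 and 4773 UMIs (unique molecular identifiers, 1 per captured transcript) per cell, and shared between 7 and 10 cell barcodes pairwise. The authors' 21 clusters were used; they were built from the expression values of the same cells, and which members were among the variable genes used was not checked, so levels between clusters are a description. Cluster 2 had rod bipolar markers, cluster 3 ON cone bipolar markers, cluster 8 OFF cone bipolar markers, clusters 5 and 9 amacrine markers, cluster 0 Müller glia markers, cluster 1 rod markers, cluster 4 cone markers and cluster 12 astrocyte markers. Of the markers fixed for OFF and ON cone bipolar cells, cluster 8 had 10 of 10 and 4 of 9 raised. Cluster 7, led by Otor and Grik1 among others, had 3 of 10 and 4 of 9 and was left unnamed. Cluster 6, led by Igfn1 and Vsx1, and cluster 10, led by Cck, had markers of both bipolar and amacrine cells and were left unnamed. Cluster 11 had 7 endothelial and 10 pericyte markers raised, and its WT cells included bipolar cells, as described below. In the WT library, 24.9% of cluster 6 and 39.7% of cluster 10 had 2 or more UMIs of 8 amacrine genes, against 1.11% and 7.48% of the rd10-vehicle cells and 1.32% and 16.3% of the rd10-TMB cells. Where leaving out these cells moved a result that is named below, the value without them stands beside it.

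All members together took 104070 UMIs, which was 0.122% of all UMIs, and no member was absent. Levels are in CPM, the UMIs of a gene per 1000000 UMIs of the cluster, counted at the transcript's 3′ end and not divided by gene length. Values for the libraries are in the order WT, rd10-vehicle and rd10-TMB. The 38 members with at least 500 UMIs are described by name, while the other 52 members held between 11 and 463 UMIs each and 10655 in sum. Cdh15 (11 UMIs) and Cdh26 (12 UMIs) were the sparsest. Cdh23, the partner of Pcdh15 in the hair cell tip link, had 50 UMIs, at 1.11 CPM in Müller glia. Among the 13 clusters of at least 100 cells, 24 of the 38 had their highest level in one of the 6 bipolar or mixed clusters, 7 in an amacrine-like cluster, 6 in a glial or vascular cluster and 1 in a photoreceptor cluster. In 6 of the 38 (15.8%) the leading cluster was at least 2-fold above the next, against 14.5% of all 11388 genes of that depth, so the share was near that of genes in general. The 6 were Pcdh10 in cluster 5, Pcdh15 in cones, Cdh13 in astrocytes, Cdh4 in cluster 5, Pcdh11x in cluster 3 and Pcdh18 in cluster 11.

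**Figure D1:**
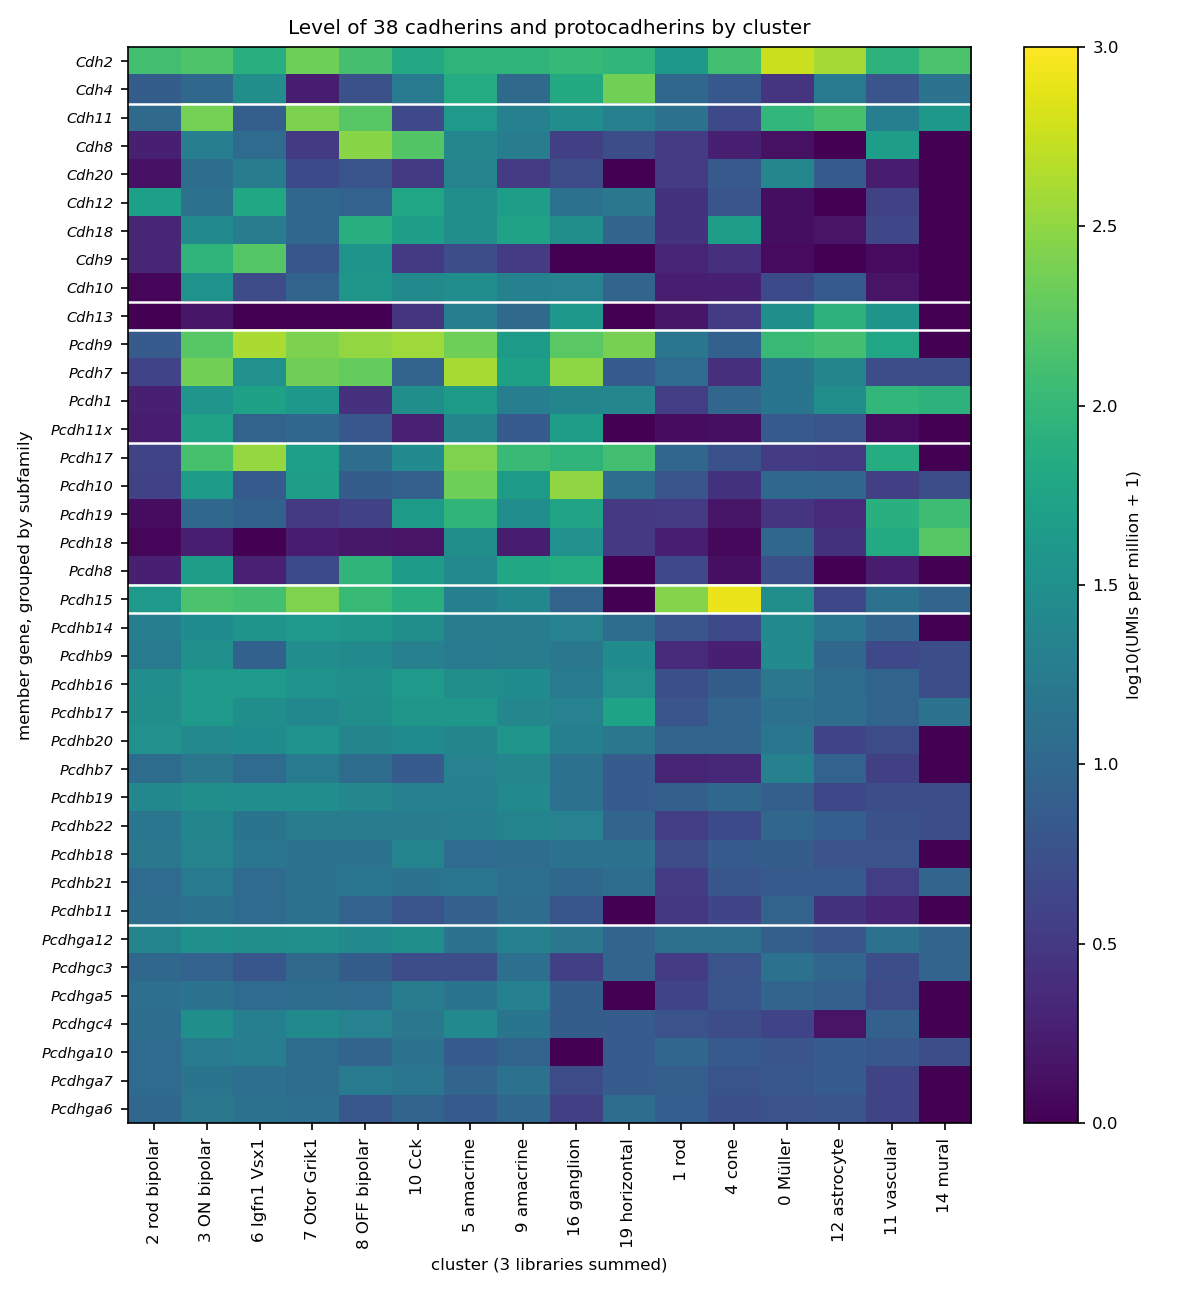
Level of the 38 members with at least 500 UMIs (rows, grouped by subfamily with white lines between) in 16 clusters (columns), as log10 of CPM plus 1, with the 3 libraries summed. Type II cadherins and delta protocadherins differ from cluster to cluster, while the 11 beta rows are each lower in rods and cones than in any bipolar or mixed column.

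Among type I cadherins, Cdh2 (N-cadherin, 29234 UMIs) was found in every cluster of the main retinal classes and was highest in Müller glia, at 616, 560 and 571 CPM. Rod bipolar cells had 110 to 127 CPM of Cdh2, and the astrocyte cluster 390. Cdh4 (R-cadherin) had 68.9 CPM in amacrine cluster 5 and 29.0 in cluster 6, and 227 in the 28 horizontal-like cells. The epithelial Cdh1 and Cdh3 had 96 and 106 UMIs in all.

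Type II cadherins had different levels in the bipolar clusters. Cdh8 (chromosome 8, 99024471 to 99416471, minus strand) was highest in cluster 8, where the libraries had 287, 292 and 294 CPM. The 3 values lay within each other's counting intervals, and the log2 ratio of rd10-vehicle to WT was 0.03 (−0.29 to 0.35). Rod bipolar cells had 1.02, 0.38 and 1.11 CPM of Cdh8. Cdh8 was therefore found in 64.2% of cluster 8 cells (269 of 419) against 0.281% of rod bipolar cells and 0.363% of rods, with median depths of 4017, 4090 and 1455 UMIs. With every cell thinned to 1000 UMIs, the share in cluster 8 was 25.7%. Cluster 7, by contrast, had no more than 3.97 CPM of Cdh8 in any library.

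Cdh9 (chromosome 15, 16728756 to 16857094, plus strand) was highest in cluster 6, with 115, 189 and 190 CPM. ON cluster 3 followed with 72.7, 83.2 and 108, and cluster 8 had 34.6, 27.4 and 41.1. Rod bipolar cells and cluster 7 had at most 6.72 CPM. Cdh9 was found in 42.2% of cluster 6 cells and 18.8% of cluster 3 cells, against 0.281% of rod bipolar cells and 0.161% of rods. In cluster 6 the rd10-vehicle level stood above the WT level by a log2 ratio of 0.72 (0.33 to 1.11), but without the cells with amacrine genes the levels were 160, 193 and 193.

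Cdh9 and Cdh8 thus marked mostly different clusters, with cluster 8 and, at a lower Cdh8 level (35.4, 11.9 and 11.5 CPM), cluster 3 holding both. Within cluster 8, 41 cells had both genes, 228 had Cdh8 alone and 16 had Cdh9 alone, where 36.9 cells with both would follow from the 2 shares in each library. Within cluster 3, 7 cells had both, 48 had Cdh8 alone and 234 had Cdh9 alone, where 9.52 would follow. Cluster 10 had 103, 268 and 210 CPM of Cdh8 and 0.760, 11.04 and 0 of Cdh9. Without the cells with amacrine genes, Cdh8 there had 209, 301 and 281, which was no longer a 2-fold difference.

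Cdh11, the most abundant type II member with 6403 UMIs, was shared by cluster 7 (276, 253 and 230 CPM), cluster 3 (252, 220 and 242) and cluster 8 (165, 177 and 158). It was low in rod bipolar cells (9.67, 8.79 and 11.1), cluster 6 and cluster 10, where no library exceeded 11.5. Cdh11 was also in Müller glia, at 92.9 to 123 CPM. Cdh12 showed another arrangement: rod bipolar cells had 54.5, 43.6 and 50.01 CPM, clusters 6 and 10 had 61.0 and 57.7 over all libraries, or 72.1, 60.8 and 73.3 and 29.1, 25.1 and 17.9 by library without the cells with amacrine genes, and clusters 3, 7 and 8 had 7.84 to 12.1. Rod bipolar cells therefore had Cdh2 and Cdh12 but scarcely any Cdh8, Cdh9, Cdh10 or Cdh11.

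Other type II members had more than one neuronal site. Cdh18 had 75.0 CPM in cluster 8, 52.5 in amacrine cluster 9 and 44.2 to 56.8 in cones. Cdh10 had 38.1 in cluster 8 and 34.1 in cluster 3. Cdh20 was highest in Müller glia (23.5) and amacrine cluster 5 (20.9). Among the members below 500 UMIs, Cdh7 led in amacrine cluster 9 with 54.8 CPM, and Cdh19 in the astrocyte cluster with 40.5.

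**Figure D2:**
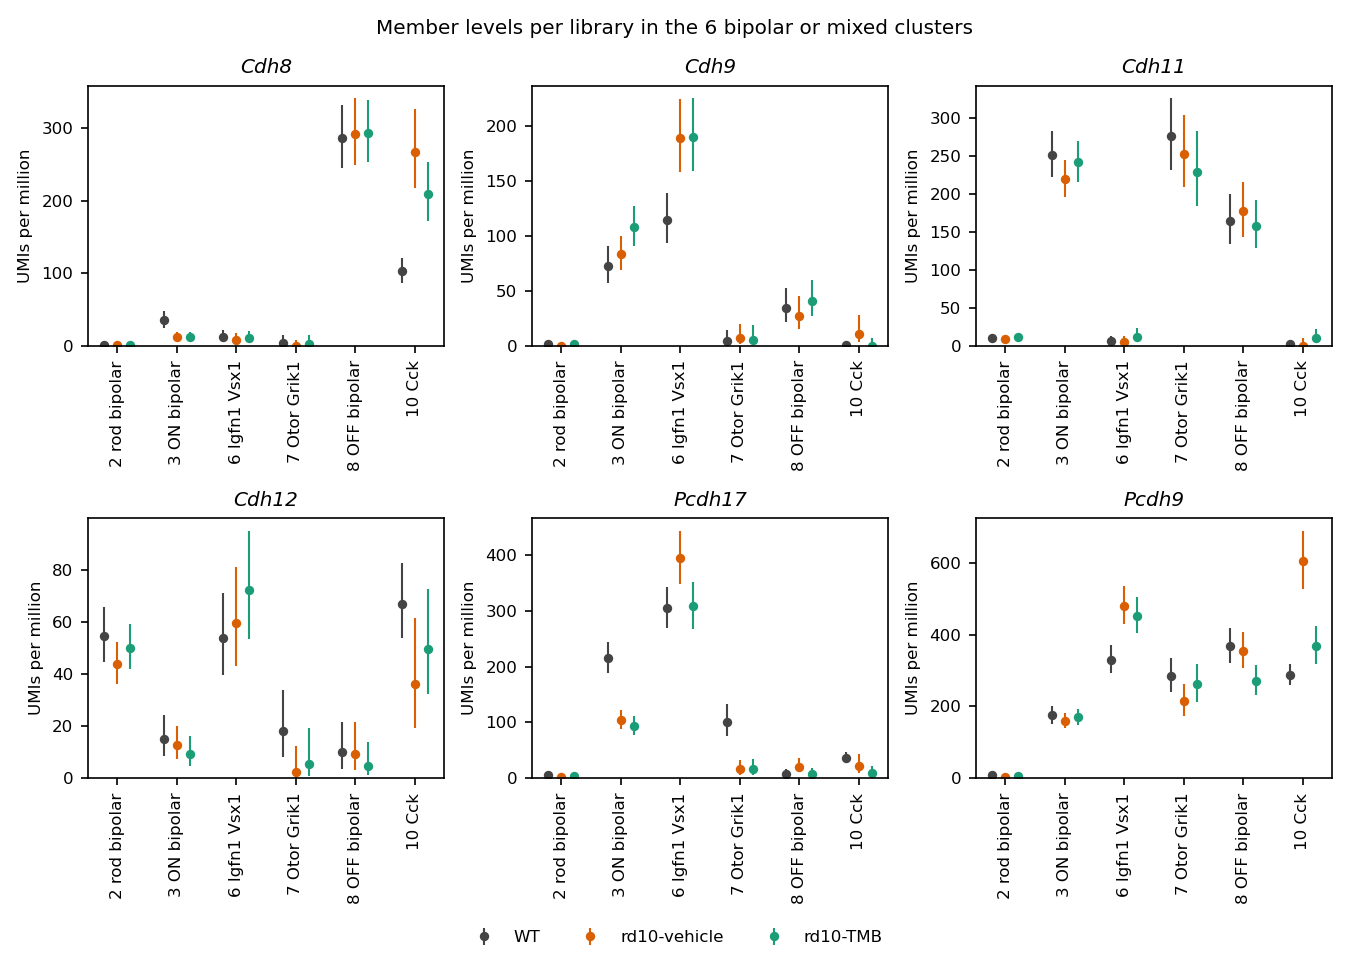
Level of 6 members in the 6 bipolar or mixed clusters, in CPM, with 1 point per library and bars for the 95% Poisson interval of the count. Cdh8 stands at 287 to 294 in cluster 8 and near 0 in clusters 2 and 7, while Cdh9 is highest in cluster 6 and Cdh11 in clusters 3, 7 and 8. Pcdh17 is lower in both rd10 libraries in clusters 3 and 7 but not, with all cells, in cluster 6.

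The delta protocadherins, which bear long cytoplasmic tails with conserved motifs, were mostly in the bipolar clusters other than cluster 2 and in amacrine clusters and were low in rod bipolar cells. Pcdh9 (9235 UMIs) had 413 CPM in cluster 6, 358 in cluster 10, 329 in cluster 8, 254 in cluster 7 and 167 in cluster 3, and Müller glia had 104. Without the cells with amacrine genes, Pcdh9 had 457, 489 and 460 in cluster 6 and 590, 672 and 494 in cluster 10. Rod bipolar cells had 9.67, 3.06 and 6.67 CPM of Pcdh9. Pcdh7 had 401 in amacrine cluster 5 and 195 to 231 in clusters 3, 7 and 8, while rod bipolar cells had 6.11, 1.53 and 2.22 and cluster 6 had 25.7 to 36.4. Clusters 3, 7 and 8 thus shared Pcdh7, Pcdh9 and Cdh11. Cluster 6 had Pcdh9 and Cdh9 without much Pcdh7 or Cdh11.

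Pcdh17 led in cluster 6, with 305, 394 and 308 CPM, or 433, 402 and 314 without the cells with amacrine genes. In that cluster 60.9% of cells had a Pcdh17 UMI, and it occurred with Cdh9: 56.5% of Pcdh17-positive cells had a Cdh9 UMI, against 20.1% of the others, at median depths of 4833 and 3888 UMIs. Without the cells with amacrine genes, the shares were 56.5% and 26.1%, at 4830 and 3688 UMIs. In cluster 3 the order was the other way, with Cdh9 in 10.4% of 280 Pcdh17-positive cells and 21.1% of the others, although the positive cells were the deeper ones (3717 against 2901 UMIs). Pcdh8 was found with Pcdh17 in cluster 3, in 81 cells where 31.7 would follow from their shares. Across all 351 pairs of members in cluster 3 the median of that ratio was 1.16, and for Pcdh8 with Pcdh17 it was 2.56, the highest. Pcdh8 itself had 89.6 CPM in cluster 8 and 62.4 in cluster 9.

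Pcdh11x (chromosome X, 120290259 to 120910619) marked a small share of cluster 3, with 52.2, 47.6 and 58.2 CPM, and was in 103 of its 1285 cells. These cells carried a different cadherin set from the rest of the cluster. A Cdh11 UMI was in 6.80% of them against 46.1% of the cells without Pcdh11x, a Pcdh15 UMI in 6.80% against 32.7%, and a Cdh9 UMI in 2.91% against 20.1%. Cdh10 and Cdh8 were in 0 of the 103. Cdh12 was in 15.5% against 1.95%, Pcdh19 in 12.6% against 1.18%, and Pcdh7 in 51.5% against 33.2%. The median depth was 3547 UMIs in the positive cells and 3052 in the others, so the lower shares did not go with lower depth. Cpne9, 1 of the 10 genes that most set cluster 3 apart, was in 69.9% of the Pcdh11x-positive cells and 2.54% of the others. By library, Cdh11 was in 3 of 25, 4 of 37 and 0 of 41 Pcdh11x-positive cells, so the arrangement was seen in each library. The pair was picked out after all pairs of members had been seen.

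Pcdh15 (chromosome 10, 73099342 to 74649737, plus strand) was the photoreceptor member. Cones had 884, 733 and 881 CPM, and rods had 283, 259 and 285. The rd10-vehicle cones stood below both other libraries, with a log2 ratio to WT of −0.27 (−0.37 to −0.16). The rd10-TMB cones were higher than the rd10-vehicle cones by 0.27 on the log2 scale (0.17 to 0.36). Neither difference reached 2-fold, and each is between single libraries. Clusters 7, 3, 6 and 8 also had Pcdh15, with 260 CPM in cluster 7, 142 in cluster 3, 126 in cluster 6 and 107 in cluster 8. Cluster 10 had 78.1, or 121, 166 and 84.4 by library without the cells with amacrine genes. Pcdh20, a non-clustered protocadherin with 279 UMIs, had 40.9 in cluster 8. With the libraries summed, the leading members of cluster 11 were Pcdh1 (89.5, 107 and 88.2 CPM), Cdh2 (85.2, 86.5 and 85.9), Pcdh19 (57.3, 75.4 and 113), Pcdh17 (68.0, 87.0 and 50.1) and Pcdh18 (55.2, 73.2 and 73.1). In WT, Pcdh9 and Cdh8 stood above these, in the bipolar cells described below. Without the cells with bipolar genes, Pcdh1 had 109, 109 and 87.4 and Cdh2 91.2, 86.9 and 88.3. Pcdh19 then had 68.6, 75.7 and 114, Pcdh17 81.3, 88.0 and 53.5 and Pcdh18 68.6, 75.7 and 72.3. Pcdh18 and Pcdh19 are delta-2 protocadherins, and Pcdh19 was also in amacrine cluster 5 at 91.1. The endothelial Pcdh12 had 34 UMIs in all and 6.95 CPM in cluster 11. Pcdh10 was highest in amacrine cluster 5, at 232 CPM in WT, among clusters of at least 100 cells, and had 321 in the 43 ganglion-like cells.

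The clustered protocadherins lay side by side on chromosome 18, and their summed counts followed cell class. The 21 beta genes, each with its own 3′ end (1 of 21 overlapped another by annotation in its last 100 bases), held 15548 UMIs. Their sum was 260 to 339 CPM in the bipolar and mixed clusters, 179 in Müller glia, 62.0 in cones, 46.1 in rods and 65.0 in cluster 11. The 21 gamma genes and 13 annotated alpha genes end in shared 3′ exons, so their reads cannot be assigned to 1 gene with certainty: they are given as sums, and any value of a single gamma gene is uncertain. Gamma genes had 159 to 227 CPM in the bipolar and mixed clusters, 108 in rods and 86.2 in cones. Alpha genes had 29.5 to 68.7 in the bipolar and mixed clusters, 27.3 in cones, 3.57 in rods and 1.09 in Müller glia. Müller glia thus had beta and gamma but very little alpha.

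The 18 beta and gamma members above 500 UMIs were Pcdhb7, Pcdhb9, Pcdhb11, Pcdhb14, Pcdhb16, Pcdhb17, Pcdhb18, Pcdhb19, Pcdhb20, Pcdhb21, Pcdhb22, Pcdhga5, Pcdhga6, Pcdhga7, Pcdhga10, Pcdhga12, Pcdhgc3 and Pcdhgc4. None of them was more than 1.18-fold above the next cluster in its leading cluster. Pcdhb14 (1824 UMIs) was the most counted, with 41.5 CPM in cluster 7, and Pcdhb9 had 30.7 in cluster 3. Single cells had few of them: a rod bipolar cell had 0.956 beta genes with a UMI on average and 24.9% had 2 or more, a Müller glia cell had 1.28 and 36.0%, and a rod had 0.0693 and 0.363%. Median depths were 4090, 8653 and 1455 UMIs, so these shares cannot be compared directly between classes. The cones, at 5126 UMIs deeper than rod bipolar cells, had 0.278 beta genes per cell.

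**Figure D3:**
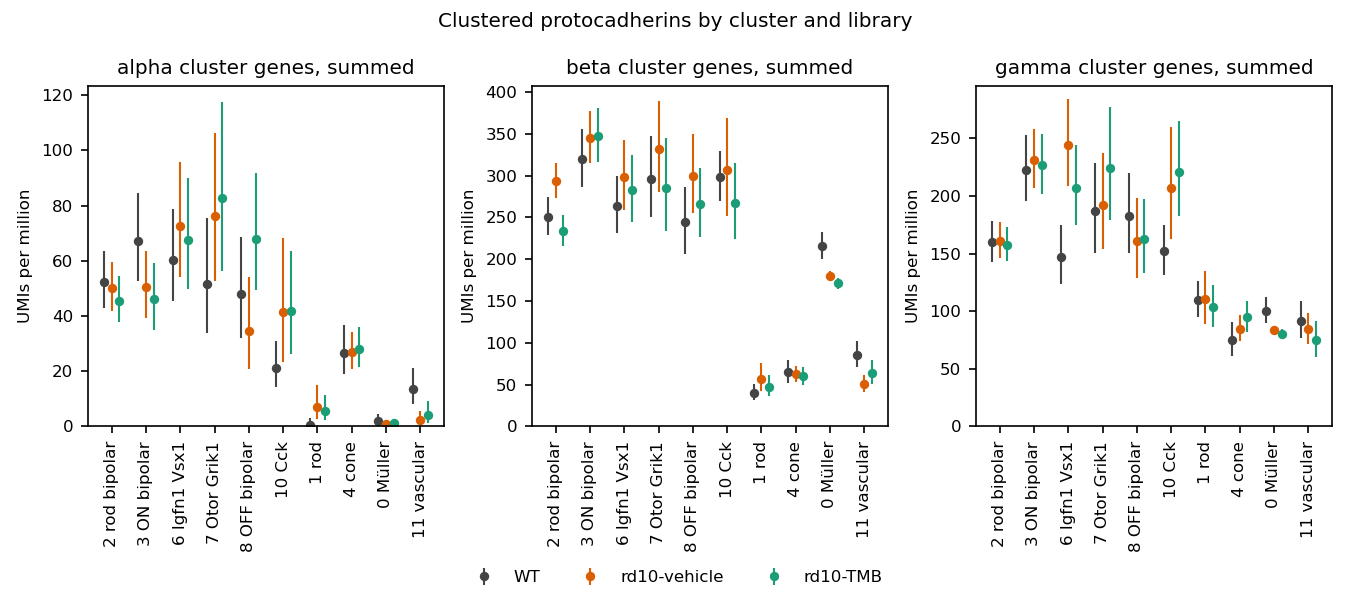
Summed level of the alpha, beta and gamma cluster genes by cluster, in CPM, with 1 point per library and bars for the 95% Poisson interval. All 3 sums are higher in the bipolar and mixed columns than in rods, cones and cluster 11, except the WT alpha sum of cluster 10 (21.3), which is below the cone points (26.7 to 28.1), and the alpha sum is near 0 in Müller glia.

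The rd10-vehicle and WT libraries were compared in the 10 clusters with at least 100 cells in each. Since there was no replicate, a member was counted as different when its level, with 1 UMI added to each count, differed at least 2-fold and both libraries together had at least 50 UMIs. Summed over the 10 clusters, 22 of 142 member and cluster combinations differed that much (15.5%), 10 higher and 12 lower, against 4.05% of all combinations of genes and clusters. The median log2 ratio of the members was −0.07 and that of all genes −0.02. With every cell thinned to 1000 UMIs, 35 member combinations had enough UMIs and 3 differed (8.57%, against 3.65% of all genes). Without the cells of another kind described for clusters 3, 6, 7, 8, 10 and 11, 10 of 132 did (7.58%, against 2.75%), and with WT limited to cells with an Xist UMI and none of a Y-linked gene, 11 of 118 (9.32%, against 3.66%). In whole-cell sums such as these, fewer cells using a gene and fewer transcripts per cell cannot be told apart, so shares of cells are added below.

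In ON cluster 3, where 1.77% of all genes differed, 3 of 23 members did, all lower in rd10-vehicle. Pcdh10 had 88.5, 24.5 and 22.2 CPM, so the WT library stood alone. Its log2 ratios to WT were −1.83 (−2.46 to −1.28) and −1.96 (−2.65 to −1.38). Pcdh17 had 215, 104 and 93.5, with log2 ratios of −1.04 (−1.35 to −0.74) and −1.20 (−1.53 to −0.88). Cdh8 was at a lower level, 35.4, 11.9 and 11.5, with ratios of −1.53 (−2.49 to −0.71) and −1.57 (−2.59 to −0.73). With WT limited to the 177 of 386 cells with an Xist UMI and none of a Y-linked gene, the Cdh8 ratios were −0.23 and −0.27, on 7 WT UMIs, and no longer reached 2-fold. In that setting the Pcdh10 ratios were −1.32 and −1.45 and the Pcdh17 ratios −0.93 and −1.08. Between rd10-vehicle and WT, Pcdh17 reached 2-fold in 5 of 9 alternatives, missing it also when thinned (−0.91) and without the cells with amacrine genes (−0.99). Pcdh8 had 65.2, 44.8 and 31.4 and passed 2-fold in rd10-TMB alone (−1.04, −1.65 to −0.48), but not with cells thinned to 1000 UMIs (−0.61). Both rd10 libraries were set against the same WT library, so the 2 comparisons are not independent. The other 20 members measured in cluster 3, among them Cdh9, Cdh11, Pcdh9 and Pcdh11x, did not reach 2-fold between rd10-vehicle and WT, and Pcdh7 had 185, 268 and 228.

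Cluster 7, with 1.15% of all genes differing, had 3 of 7 members that did. Pcdh10 was again highest in WT, at 95.3 against 26.9 and 8.01 CPM, and so was Pcdh17, at 101 against 15.7 and 16.01. The Pcdh17 log2 ratios to WT were −2.53 (−4.08 to −1.55) and −2.47 (−4.17 to −1.44). Those of Pcdh10 were −1.74 (−2.88 to −0.89) and −3.19 (−5.90 to −1.94), the latter resting on 3 UMIs. With WT limited to its 65 of 143 cells with Xist but no Y-linked transcript, the Pcdh10 ratios were −0.23 and −1.68, on 6 WT UMIs, so the rd10-vehicle one fell short of 2-fold, and those of Pcdh17 were −2.21 and −2.15. Cdh11 in the same cells had 276, 253 and 230, within counting error of each other.

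Fewer rd10 cells had either gene. In cluster 3 a Pcdh10 UMI was in 15.3% (11.8 to 19.3), 5.39% (3.58 to 7.74) and 5.53% (3.496 to 8.25) of cells, at median depths of 2464, 2992 and 3515 UMIs. UMIs per Pcdh10-positive cell were 1.61, 1.30 and 1.32. For Pcdh17 in cluster 3 the shares were 29.0%, 19.4% and 17.8%, with 2.06, 1.54 and 1.72 UMIs per positive cell. In cluster 7 the Pcdh10 shares were 18.9%, 5.62% and 2.34%, and the Pcdh17 shares 19.6%, 3.37% and 3.12%. Rod bipolar cells had a Pcdh10 UMI in 3.46%, 0.412% and 0.464% of cells and rods in 1.44%, 0% and 0.268%. The Pcdh17 shares were 1.73%, 0.412% and 0.618% in rod bipolar cells and 1.61%, 1.08% and 0.938% in rods. Both genes were thus also found more often in WT in clusters with little of them. Of WT cluster 7 cells with Pcdh10, 37.0% had Pcdh17, against 15.5% of those without, at median depths of 4791 and 3307 UMIs. In WT cluster 3 these shares were 37.3% and 27.5%, at 1573 and 2710 UMIs.

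Fat4, an atypical cadherin outside the family as defined here and part of a list of related genes, followed the same pattern. It had 53.1, 6.30 and 8.43 CPM in cluster 3 and 95.3, 33.6 and 42.7 in cluster 7. In WT, a Fat4 UMI was in 25.4% of the Pcdh10-positive and 5.20% of the other cells of cluster 3, and in 51.9% and 15.5% in cluster 7, where the Pcdh10-positive cells were the deeper ones. Pcdh10-positive WT cells of cluster 3 also had Cdh8 more often, 16.9% against 5.50%, at a median depth of 1573 against 2710 UMIs. The summed OFF cone bipolar markers in cluster 3 were 382, 187 and 198 CPM, with 10, 9 and 10 of 10 markers seen. The amacrine markers were 460, 474 and 415. Their part in the result was not tested. Leaving out the cells with amacrine genes left Pcdh10 at 82.9, 24.5 and 22.2 in cluster 3 and at 89.2, 26.9 and 8.01 in cluster 7. Pcdh17 in cluster 3 was then at 207, 104 and 93.5.

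**Figure D4:**
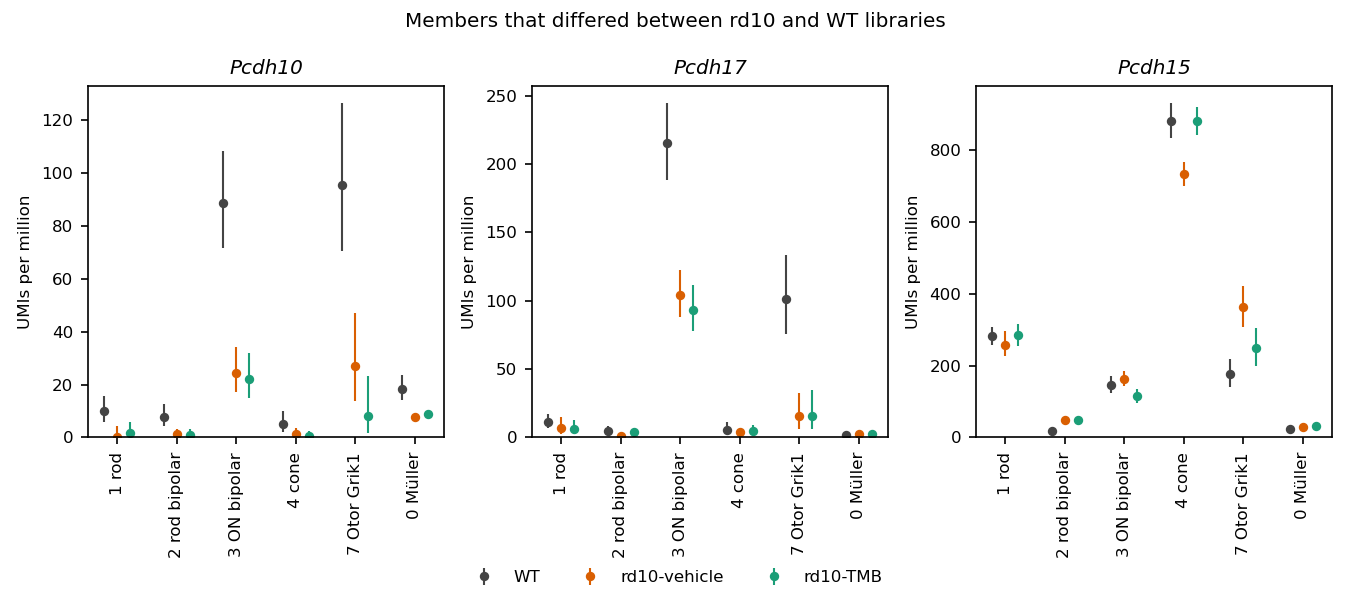
Level of Pcdh10, Pcdh17 and Pcdh15 in 6 clusters, in CPM, with 1 point per library and bars for the 95% Poisson interval. In clusters 3 and 7 the WT points of Pcdh10 and Pcdh17 lie above both rd10 points, and in cluster 2 both rd10 points of Pcdh15 (49.7 and 50.01) lie above WT (18.8).

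As Pcdh10 and Pcdh17 were the members at least 2-fold lower in both clusters 3 and 7 with all WT cells, their promoter windows are shown. With WT limited by Xist, Pcdh10 in cluster 7 fell short of 2-fold in rd10-vehicle, as given above. The windows run from 250 bases before to 50 after the RefSeq start in GRCm38.p6, and 22 of the 90 members had one. Capitals mark GGGCGG or its reverse complement and CCAAT or its reverse complement.
Pcdh10, chr3:45378148-45378447, plus strand: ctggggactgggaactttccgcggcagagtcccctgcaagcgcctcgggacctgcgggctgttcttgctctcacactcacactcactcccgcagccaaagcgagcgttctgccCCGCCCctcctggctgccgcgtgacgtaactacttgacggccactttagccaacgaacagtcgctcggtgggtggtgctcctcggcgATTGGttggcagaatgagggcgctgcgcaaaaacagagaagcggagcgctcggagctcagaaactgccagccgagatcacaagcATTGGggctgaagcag
Pcdh17, chr14:84443313-84443612, plus strand: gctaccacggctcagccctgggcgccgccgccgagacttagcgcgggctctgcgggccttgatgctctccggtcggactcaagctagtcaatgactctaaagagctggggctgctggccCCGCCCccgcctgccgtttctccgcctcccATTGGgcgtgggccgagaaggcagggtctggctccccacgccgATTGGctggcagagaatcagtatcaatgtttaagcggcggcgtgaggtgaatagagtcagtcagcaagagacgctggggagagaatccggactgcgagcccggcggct
Each window had 1 GGGCGG match and 2 CCAAT matches on either strand, and 62.3% and 65.0% G and C. Of all 32851 windows, 35.7% had GGGCGG and 37.4% had CCAAT. Neither window had CANNTG, which 72.3% of windows had, or TAATCC, which 7.06% had, or TATAAA, which 13.6% had. The matches are descriptions of letters in these windows.

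In rod bipolar cells, where 1.32% of all genes differed, Pcdh15 was the 1 of 16 members that did. It had 18.8, 49.7 and 50.01 CPM, with log2 ratios of 1.37 (0.86 to 1.97) and 1.38 (0.88 to 1.98). These were 0.87 and 0.77 thinned, and 0.88 and 0.89 with the WT cells limited by Xist, so both fell short of 2-fold there. A Pcdh15 UMI was in 7.65%, 15.1% and 17.2% of cells. The summed cone markers in these cells were 1703, 2404 and 2099 CPM, with 9, 9 and 8 of 9 seen, and the rod markers 1014, 570 and 951, and their part in the result was not tested. In cluster 7, Pcdh15 had 177, 363 and 248, log2 ratios to WT of 1.03 (0.66 to 1.43) and 0.49 (0.05 to 0.93), beside cone markers at 1436, 2169 and 2231, and the former was 0.58 with the WT cells limited by Xist. The Usher complex partners, a list of 9 genes, had 0 of 22 combinations that differed between rd10-vehicle and WT, against 4.05% of all genes. With so few combinations, that count was near the share of genes in general. Their median log2 ratio was 0.14.

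Müller glia had the most members with enough counts, 51, of which 5 differed between rd10-vehicle and WT, against 6.96% of all genes. Cdh13 (T-cadherin, which is anchored by a lipid and lacks a cytoplasmic tail) was the 1 that was higher, with 15.1, 33.8 and 27.9 CPM. Its share of positive cells was 7.55%, 21.7% and 19.6%, at median depths of 6300, 8594 and 9455 UMIs. Cdh13 was highest in the astrocyte cluster (85.0), and the astrocyte markers summed to 792, 1181 and 1106 CPM in Müller glia with 5, 5 and 4 of 6 seen, and their part was not tested. The lower members were Pcdh10 (18.4, 7.84 and 8.76), Cdh4 (4.22, 2.03 and 1.37), Pcdhb6 (4.52, 2.34 and 2.98) and Pcdh19 (4.22, 1.71 and 1.67). All 4 were low in Müller glia in each library. Pcdhb6 reached 2-fold in 4 of 8 alternatives (−1.37 to −0.82) and Cdh4 in 7 of 8 (−1.71 to −0.91).

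In Müller glia the median log2 ratio of the 51 members between rd10-vehicle and WT was −0.36, with 39 below 0, beside −0.06 for all genes. In rd10-TMB against WT it was −0.33 over 48 members, with 40 below 0, beside −0.08. WT cells were shallower, as given above, and with cells thinned to 1000 UMIs the medians were −0.23 over 9 members, with 5 below 0, and −0.15 over 8, with 5 below 0, beside −0.06 for all genes in both. The beta sum was 216, 180 and 171 CPM and the gamma sum 101, 83.4 and 80.5, with WT above both rd10 libraries beyond the counting intervals. The amacrine markers in the same cluster summed to 1094, 787 and 816, with 12, 11 and 12 of 12 seen, and their part was not tested. In rd10-TMB, Cdh10, Pcdhb8 and Pcdhgc4 also differed 2-fold from WT, at 3.34, 2.80 and 2.32 CPM. Over the alternatives Cdh10 ranged from −0.89 to −1.54 on the log2 scale and reached 2-fold in 3 of 8. Pcdhb8 ranged from −0.99 to −1.37 and reached it in 7 of 8. Pcdhgc4, uncertain for its shared 3′ end, turned from −1.10 to 0.87 when thinned. In rod bipolar cells and cluster 3 the member medians between rd10-vehicle and WT were 0.24 over 16 and −0.08 over 23.

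In cluster 11, where 7.16% of all genes differed, Cdh8 had 127, 9.42 and 5.56 CPM, and Pcdh9 had 143, 20.5 and 21.5. The WT values lay in cells with bipolar and hardly any endothelial markers. The 41 of 137 WT cells with a Cdh8 UMI had 5687 CPM of ON and 4092 of OFF bipolar markers and 7.65 of endothelial markers, while the other 96 had 129, 105 and 12546. A Cdh8 UMI was in 7 of 156 rd10-vehicle and 3 of 100 rd10-TMB cells. Without the 47, 11 and 14 cells with 3 or more UMIs of 9 bipolar genes, no Cdh8 UMI was left in any library, and Pcdh9 had 1.81, 0.587 and 0.892. The 11 and 14 rd10 cells left out also had endothelial markers, at 7260 and 8272 CPM, against 107 in the 47 WT cells. The third member that differed, Cdh13, had 19.3, 44.3 and 36.6 with all cells and 22.6, 44.0 and 38.4 without those cells, a log2 ratio to WT of 0.93 in rd10-vehicle, which was 0.21 thinned.

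**Figure D5:**
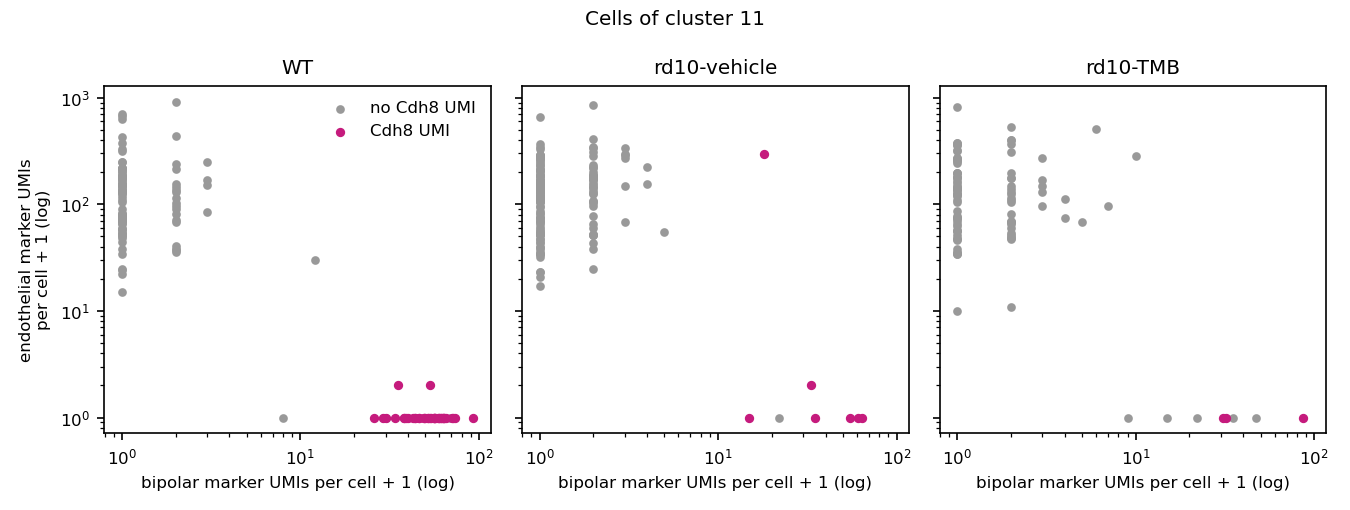
Cells of cluster 11 by the UMIs of 9 bipolar markers (x) and of the endothelial markers (y), each plus 1 on a log axis, with 1 panel per library and cells with a Cdh8 UMI in magenta. The 41 magenta WT cells lie at the lower right, with many bipolar and almost no endothelial UMIs.

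In cluster 10, 6 of 13 members differed, and its share of all genes that did, 8.15%, was the highest of the 10 clusters. With all cells, the libraries had 103, 268 and 210 CPM of Cdh8, 287, 605 and 368 of Pcdh9, 60.1, 160 and 66.8 of Pcdh15, 38.8, 82.8 and 40.1 of Cdh18, 35.7, 71.8 and 49.6 of Pcdh8, and 38.02, 5.52 and 22.9 of Cdh7. The amacrine markers summed to 1802, 334 and 887 CPM, with 12, 7 and 10 of 12 seen. Without the cells with amacrine genes the levels were 209, 301 and 281 for Cdh8, 590, 672 and 494 for Pcdh9, 121, 166 and 84.4 for Pcdh15, 64.7, 84.7 and 53.7 for Cdh18 and 74.4, 78.5 and 66.5 for Pcdh8, and none of these reached 2-fold between rd10-vehicle and WT. Cdh7 had 50, 2 and 12 UMIs with all cells and 0 in each library without those cells, so no ratio is given for the latter. Within cluster 10, Cdh12 was in 8.46% of Cdh8-positive cells and 26.5% of the others, but in 8.12% and 8.05% without the cells with amacrine genes. Pcdh17 had 35.7, 22.1 and 9.54 and passed 2-fold in rd10-TMB against WT. Without those cells it had 4, 1 and 1 UMIs and a ratio of −0.66, so that difference was not kept.

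Few members differed elsewhere. In cluster 6, 1 of 9 did against 3.81% of all genes: Pcdhb14, with 22.3, 49.5 and 36.0 CPM, which was 32.1, 50.4 and 36.6 without the cells with amacrine genes, a log2 ratio of 0.62. Rods (2 members measured, 3.73% of all genes), cones (4 members, 1.76%) and cluster 8 (8 members, 0.94%) had 0. In rods, Cdh2 had 27.8, 36.0 and 56.2 CPM and passed 2-fold in rd10-TMB against WT, with a log2 ratio of 1.01 (0.47 to 1.57). That ratio ranged from 0.87 to 1.49 over the alternatives and reached 2-fold in 5 of 8. Cdh2 was highest in Müller glia, and over all cells the libraries had 192, 391 and 381 CPM of it. The part of Müller glia RNA in the rod values was not tested. In cluster 8, Pcdh9 had 367, 355 and 271, and no member reached 2-fold in any comparison.

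The drug-fed and vehicle-fed rd10 libraries were then compared, where treatment and library cannot be told apart. Over the 10 clusters, 4 of 149 member combinations differed 2-fold (2.68%), against 0.551% of all genes, and these were Cdh19 in Müller glia, Pcdhb21 in rod bipolar cells, and Pcdh15 and Cdh18 in cluster 10. Cdh19 had 1.58 CPM in rd10-vehicle and 3.28 in rd10-TMB, and Pcdhb21 had 14.5 and 6.67. Pcdh15 and Cdh18 in cluster 10 had 160 and 82.8 in rd10-vehicle and 66.8 and 40.1 in rd10-TMB, beside amacrine markers at 334 and 887. Without the cells with amacrine genes, those log2 ratios were −0.96 and −0.64, and thinned, that of Cdh19 was −0.065 and that of Pcdhb21 −0.40. The count was 2 of 145 without those cells (0.524% of all genes) and 0 of 39 thinned (0.615% of all genes), so none of the 4 differences held under each alternative. Clusters 1, 3, 4, 6, 7, 8 and 11 had 0 members that differed. In cluster 3 the levels of Pcdh10 (24.5 and 22.2) and Pcdh17 (104 and 93.5) were close, with log2 ratios whose intervals included 0. Between rd10-TMB and WT, 16 of 141 combinations differed (11.3%, against 2.94% of all genes), 3 higher and 13 lower. Thinned, 3 of 31 did, against 2.47% of all genes.

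Amacrine clusters 5 and 9 had 43 and 35, and 62 and 48, cells in the rd10-vehicle and rd10-TMB libraries against 461 and 295 in WT, so their values are given without counting differences. Pcdh7 in cluster 5 had 333, 940.5 and 729 CPM, and Cdh4 had 52.8, 146 and 192. Pcdh10 had 232, 99.3 and 115, and Pcdh9 had 239, 66.2 and 76.8. In cluster 9, Pcdh17 had 140 in WT and 0 UMIs in both rd10 libraries, which with a floor of 3 counts per library is at least 8.79-fold and 7.18-fold lower. Cdh7, which led in cluster 9, had 54.6, 69.0 and 39.0. Kinds of amacrine cell within these clusters were not told apart.

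Lists of related genes, chosen with earlier results known, were counted in the same way. The catenins, which link classical cadherins to actin, had 0 of 61 combinations at 2-fold between rd10-vehicle and WT, against 4.05% of all genes. Their median log2 ratio was −0.04 beside −0.02 for all genes. Of the other cadherin superfamily, 5 of 44 differed (median −0.08), beside 4.05% of all genes: Fat3 in Müller glia (12.95 and 3.11 CPM in the WT and rd10-vehicle libraries) and in cluster 11 (30.1 and 4.99), Fat4 in clusters 3 and 7 as above, and the calsyntenin Clstn3 in cluster 10 (78.3 and 174). Immunoglobulin adhesion genes of the plexiform layers had 3 of 34 (median −0.11), beside the same 4.05%: Cntn1 in clusters 10 (31.2 and 77.3) and 11 (58.7 and 7.76), and Cntn4 in cluster 10 (109 and 30.4). In rd10-TMB against WT this list also had Dscam in cones, and Sdk1 and Cntn5 in cluster 10. The clusters 10 and 11 values include the cells of another kind.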

How the data were processed

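The deposited matrix holds values that the authors made as the natural log of 1 plus UMIs per 10000. Total UMI counts per cell, library and cluster came from the deposited cell table. Per the labels and the study's methods, reads were aligned to mm10 with Cell Ranger 6.0.1, doublets were removed with Scrublet, and cells with at least 500 genes were clustered in Seurat 3.2.2 after Harmony; MAST comparisons over cells were not used. Whole UMIs were recovered from the log values: 100% of 32620606 entries were whole within 0.001 UMI, and sums matched the deposited total in all 15242 cells (85078013 UMIs). Counts were summed per cluster and library with Python 3.11.15, numpy 2.4.6, scipy 1.17.1 and pandas 2.3.3.

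Intervals are exact Poisson for levels, exact conditional binomial for ratios and exact binomial (Clopper-Pearson) for shares, and cover counting error only. Scripts were tested on simulated counts. Clusters were named from marker lists (at least 2-fold above the rest and 20 CPM, 3 markers or more); clusters going against a name were left unnamed. Gene positions and 3′ ends came from GENCODE M21 (GRCm38). Named members are those with at least 500 UMIs, the leading ones of bipolar and amacrine clusters, and each that differed 2-fold; members, lists and rules were chosen with earlier results of these data known. Genes for the cells of another kind were chosen after seeing the data: Gad1, Gad2, Slc32a1, Tfap2a, Tfap2b, Tfap2c, C1ql2 and 1 gene not reported here (amacrine), and Grm6, Trpm1, Scgn, Gng13, Lrtm1, Cabp5, Grik1, Zfhx4 and Neto1 (bipolar). Alternatives were other scaling, cell filters, thinning, minimums, folds and pseudocounts.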

Additional observations from a re-analysis of the deposited data

How the results depend on the processing

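No paired analysis was possible because each group is 1 library. Of the 42 single member ratios at 2-fold, 38 kept their direction under each alternative run and 10 stayed at 2-fold under each. Both counts include alternatives with hardly any UMIs. Cdh8 in cluster 11 had 0 UMIs in each library without the cells of another kind. Its computed −0.62 and −0.017 there come from the added 1 UMI and the library totals and show no direction. Pcdh9 in cluster 11 (rd10-vehicle against WT), 1 of the 10, then rested on 2 WT UMIs and 1 rd10-vehicle UMI. The members that differed between rd10-vehicle and WT numbered 22 (15.5%, beside 4.05% of all genes); they were 3 with cells thinned to 1000 UMIs (8.57%, 3.65%), 11 with WT limited to cells with a UMI of Xist but none from the Y chromosome (9.32%, 3.66%), 46 and 7 with minimums of 20 (16.03%, 6.82%) and 200 UMIs (14%, 2.58%), 45 at 1.5-fold (31.7%, 13.5%), and 10 without the cells of another kind (7.58%, 2.75%). Between rd10-TMB and rd10-vehicle the 4 became 0 thinned (0.615% of all genes), 17 (6.05%, 2.36%) and 0 (0.161% of all genes) with those minimums, 14 at 1.5-fold (9.40%, 5.32%) and 2 without those cells (1.38%, 0.524%). Between rd10-TMB and WT the 16 became 3 thinned (9.68%, 2.47%), 41 (13.9%, 5.61%) and 4 (9.09%, 1.66%) with those minimums and 34 at 1.5-fold (24.1%, 11.7%). They were 15 with WT limited by Xist (13.6%, 2.76%) and 11 without the cells of another kind (8.73%, 1.99%). Fewer UMIs or cells enter the thinned and sex-limited settings, and fewer combinations pass the higher minimum, by construction, while more pass the lower one. Members led by 1 cluster numbered 10 at 1.5-fold and 1 at 3-fold, against 6 at 2-fold (15.8%, beside 14.5% of all genes). The share of all genes at 1.5-fold and 3-fold is not given, so those counts cannot be set against genes in general. Thinning moved the member median in Müller glia to −0.15 (rd10-TMB against WT) and in rod bipolar cells to 0.21 (rd10-TMB against rd10-vehicle) and 0.31 (rd10-TMB against WT). 3 ratios changed direction when thinned: Cdh19 in cluster 0 (rd10-TMB against rd10-vehicle) was −0.065, Pcdhgc4 in cluster 0 (rd10-TMB against WT) 0.87 and Pcdh8 in cluster 10 −0.58; the cause was not tested. Without cells of another kind Cdh7 in cluster 10 had 0 UMIs in each library, so its computed 0.96 comes from the added 1 UMI and the unequal library totals and is no change of direction. Members with few UMIs per cluster are limited by depth.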
